A study of Mus musculus with 6 samples.

Results

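Serpins form a large family of proteins with a common fold, most of which inhibit serine or cysteine proteases. The 9 listed serpin genes, Serpinf1, Serpinb1a, Serpinb6a, Serpinb9, Serpina3g, Serpine2, Serpinh1, Serpini1 and Serping1, were described in mouse LT-HSCs, the long-term haematopoietic stem cells that sustain blood formation from the marrow. They were found by their symbols, matched through Entrez identifiers, and are 9 of 64 serpin genes among the 21761 genes of the table. The list was chosen from genes whose counts and fold changes in this same comparison were already known, so the fold changes of its members are a description and no p-value is given for them.

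The study asked what renewed expression of IMP1, a fetal RNA-binding protein encoded by Igf2bp1, changes in adult LT-HSCs. IMP1 cells were of genotype Rosa26 I/+;Mx1-Cre tg/+ and carried an IMP1 knock-in at Rosa26 that Cre switches on. Control cells were Rosa26 +/+;Mx1-Cre tg/+, with the same Cre transgene and no knock-in. The sample labels spell the genotypes this way, while the series' design text prints a capital I where they have the slash. In both groups whole marrow of the CD45.2 allotype had been transplanted into lethally irradiated CD45.1/2 hosts, and both groups were sorted 8 weeks after the last injection of poly(I:C), a double-stranded RNA that induces interferon and, through it, the Mx1 promoter that drives Cre. Mx1-Cre is active in many cell types that respond to interferon, not in stem cells alone. The cells were sorted as CD45.2+ LSK CD150+ CD48- CD34-, with 200 cells per library and 3 biological replicates of each genotype. The sources used here do not give strain, age or sex, nor how the replicates were kept apart, so p-values measure the spread between these libraries.

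The libraries held 25749898 to 27338450 counts in Control and 50220629 to 67083116 in IMP1 cells, so depth and genotype cannot be told apart (2.26 times deeper on average). For Igf2bp1 the Control libraries held 0, 0 and 1 counts and the IMP1 libraries 1870, 2084 and 2016, which fits their labels. Levels below are CPM, counts relative to the library's total after scaling by the trimmed mean of M values (TMM), as mean ± SD over 3 libraries. All 12 LT-HSC markers listed were detected and tested, 9 positive and 3 negative in log2 fold change. Their summed level was 1815.5 to 2046.6 CPM in Control and 2285.6 to 2489.4 CPM in IMP1 libraries. These ranges did not overlap. By edgeR 1 of the 12 was called, higher in IMP1 cells (5 at an unadjusted p under 0.05, 2 called by DESeq2, 0 by limma-voom). Kit, a sort marker, stood at 415 ± 54.2 and 505 ± 90.8 CPM in Control and IMP1 cells. Transcripts of Cd34, whose protein the gate selects against, were also present (283 ± 29.2 and 168 ± 38.8 CPM, log2 fold change −0.75). So were those of Cd48, also selected against and named after its values were seen, with a log2 fold change of 0.73. Cd48 stood at 18.1, 1.86 and 2.84 CPM in Control and 26.8, 7.86 and 3.31 CPM in IMP1 libraries. Control 1 and IMP1 1 were the highest. By edgeR neither gene was called, and DESeq2 called Cd34. Markers of other cells differed between libraries. The summed level of 8 erythroid markers was 35.6 to 43.4 CPM in Control and 323, 70.3 and 88.8 CPM in IMP1 libraries. IMP1 1 was the highest, and every IMP1 library was above every Control library. Hbb-b1 alone gave 59.9 of the 70.3 CPM in IMP1 2 and 51.5 of the 88.8 CPM in IMP1 3. Of these 8 markers 4 were tested, 3 positive and 1 negative in log2 fold change. By edgeR 1, Hbb-b1, was called higher (2 at an unadjusted p under 0.05, 3 called by DESeq2, 0 by limma-voom). IMP1 1 also had the highest sum of 12 neutrophil precursor markers, 938 CPM against 234 to 516 CPM in the other libraries. In IMP1 2 alone, transcripts of the B cell precursor genes Igll1 (33.2 CPM), Cd79a (16.9 CPM) and Ebf1 (14.2 CPM), named after their values were seen, were above 1 CPM. The 2 members that were called are therefore also given without IMP1 1 and without IMP1 2.

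An inhibitory serpin offers an exposed loop as bait. The protease that cuts this loop is trapped in a covalent complex with the serpin, and both are lost. Some serpins have lost this activity and serve as ligands or chaperones. In the marrow the family is best known for holding in check the proteases of myeloid granules and of cytotoxic lymphocytes, and clade B serpins do this inside the cell. Clade A and B genes lie in clusters of related copies in the mouse, and that bears on how reads were counted.

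Serpinb1a has close copies beside it on chromosome 13, Serpinb1b and Serpinb1c. The stretch below is shown because it is the longest coding run that Serpinb1a and Serpinb1b share exactly, 81 bases, with 15 bases on either side. It covers bases 604 to 714 of each coding sequence, from the GENCODE M21 transcripts of build GRCm38. Capitals mark every position at which the 3 genes are not all alike.

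Serpinb1a: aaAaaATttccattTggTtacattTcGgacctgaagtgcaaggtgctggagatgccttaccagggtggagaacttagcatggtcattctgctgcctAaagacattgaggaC
Serpinb1b: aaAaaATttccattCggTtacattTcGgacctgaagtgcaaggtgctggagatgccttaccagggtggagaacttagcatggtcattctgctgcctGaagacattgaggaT
Serpinb1c: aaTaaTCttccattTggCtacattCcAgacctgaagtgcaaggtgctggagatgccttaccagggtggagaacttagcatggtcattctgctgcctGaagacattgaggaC

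Over these 111 bases Serpinb1b differed from Serpinb1a at 3 positions and Serpinb1c at 7. A read that falls inside the lower-case run cannot be assigned to one of the 3 genes. Elsewhere the copies differ more, since 3.42% of all 50-base windows of the longest Serpinb1a transcript, and 0 of its 100-base windows, occurred in a transcript of another gene.

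Promoters are shown because poly(I:C) induces interferon, and 3 of the listed genes hold matches to interferon response elements just before or after their start. The windows, from 250 bases before to 50 bases after the start, are RefSeq's for GRCm38.p6, while the counts were made with another build. Windows were found for 7 of the 9 members, and none for Serpinb1a and Serping1. Capitals mark matches on either strand to the core of the interferon-stimulated response element (the 4 letters GAAA, any 2 bases, and GAAA again), to the gamma-activated site bound by STAT factors (TTCNNNGAA), and to CCAAT.

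Serpinf1, chr11:75422574-75422873, minus strand: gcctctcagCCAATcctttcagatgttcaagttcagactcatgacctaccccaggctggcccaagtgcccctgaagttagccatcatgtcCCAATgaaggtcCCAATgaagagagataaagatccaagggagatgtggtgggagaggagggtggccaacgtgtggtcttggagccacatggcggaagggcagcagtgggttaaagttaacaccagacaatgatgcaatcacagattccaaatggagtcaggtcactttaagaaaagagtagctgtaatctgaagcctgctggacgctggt
Serpina3g, chr12:104235897-104236196, plus strand: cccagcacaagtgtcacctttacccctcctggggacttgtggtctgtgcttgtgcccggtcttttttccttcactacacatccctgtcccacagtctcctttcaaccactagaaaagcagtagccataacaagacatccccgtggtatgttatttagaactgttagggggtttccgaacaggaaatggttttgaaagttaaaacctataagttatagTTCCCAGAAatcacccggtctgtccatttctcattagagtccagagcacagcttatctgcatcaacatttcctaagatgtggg
Serpinb9, chr13:33004291-33004590, plus strand: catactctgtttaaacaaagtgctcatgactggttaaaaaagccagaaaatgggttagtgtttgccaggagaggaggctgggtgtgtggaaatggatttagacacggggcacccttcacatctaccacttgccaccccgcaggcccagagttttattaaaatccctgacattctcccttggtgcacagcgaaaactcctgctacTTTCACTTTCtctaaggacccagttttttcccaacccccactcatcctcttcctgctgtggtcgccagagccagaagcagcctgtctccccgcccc
Serpinb6a, chr13:34002745-34003044, minus strand: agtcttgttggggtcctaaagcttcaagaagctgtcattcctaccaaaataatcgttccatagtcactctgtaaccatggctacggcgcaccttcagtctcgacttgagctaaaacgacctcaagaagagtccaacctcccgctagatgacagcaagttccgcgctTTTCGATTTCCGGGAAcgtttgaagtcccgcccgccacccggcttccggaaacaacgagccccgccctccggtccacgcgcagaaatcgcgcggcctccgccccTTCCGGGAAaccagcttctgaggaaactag

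Serpinb9 held the response element core 46 bases upstream of its start, and Serpinb6a held it 84 bases upstream of the start shown, overlapping a gamma-activated site. A second annotated start of Serpinb6a has its own window, chr13:33936034-33936333, which held CCAAT and neither interferon element. Serpina3g held a gamma-activated site 33 bases upstream. Of all 32851 promoter windows of this length, 3.44% held the response element core, 8.3% the gamma-activated site and 37.4% CCAAT. Serpinf1 held CCAAT at 3 places and neither interferon element in this window, and the windows of Serpine2, Serpinh1 and Serpini1 also held neither. A match is a run of letters and not a measured binding site.

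Of the 9 members, Serpinf1 was 3.78 times as abundant and Serpinb1a 0.371 times as abundant in IMP1 as in Control cells. The other 7 members had no difference that passed the threshold or were too sparse to be tested. In the fit over all genes (edgeR's quasi-likelihood test, Benjamini-Hochberg adjusted p under 0.05), 8 of the 9 members passed the filter on low counts and 2 of these were called, 1 higher and 1 lower in IMP1 cells. Over all 12807 genes tested, 0.211% were called, 0.0703% higher (9 genes) and 0.141% lower (18 genes). Without library scaling, the split was 9 higher and 7 lower. Since this comparison had chosen the members, nothing is read from their count.

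**Figure D1:**
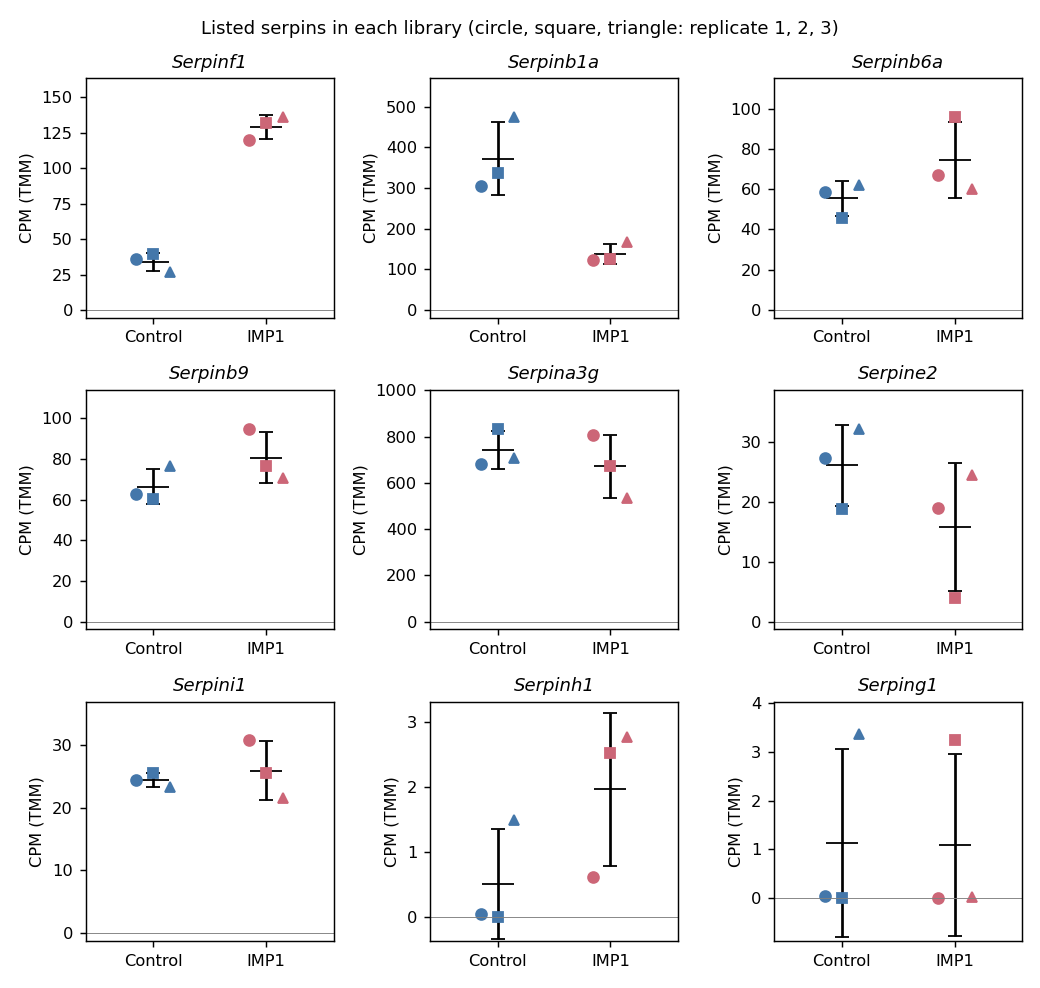
TMM-scaled CPM (y axis, linear, a separate scale per gene) of the 9 listed serpins in each Control (blue) and IMP1 (red) library; the black line is the mean and the bar 1 SD over 3 libraries. The groups stand apart for Serpinf1, at 27.1 to 39.3 and 119.6 to 136 CPM, and for Serpinb1a, at 305 to 474 and 122 to 166 CPM, and overlap for the other 7 genes.

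Serpinf1 encodes pigment epithelium-derived factor (PEDF), a secreted serpin that does not inhibit proteases and acts as a ligand that limits vessel growth. Control libraries held 958, 993 and 676 of its counts and IMP1 libraries 7620, 9111 and 7058. As CPM these were 36.0, 39.3 and 27.1 in Control and 119.6, 131 and 136 in IMP1 cells. The lowest IMP1 library lay far above the highest Control library, and the IMP1 libraries lay close together. The means were 34.1 ± 6.33 and 129 ± 8.45 CPM, a log2 fold change of 1.92 (SE 0.19), or 3.78-fold. Of its 50-base windows, 0 occurred in another gene's transcripts. Its call was lost in each of the 6 fits that left out 1 library, where the log2 fold change lay between 1.78 (without Control 3) and 2.03 (without Control 2), and was 1.97 without IMP1 1 and 1.90 without IMP1 2. The erythroid marker Hbb-b1 was higher in every IMP1 library too, at 16.9 ± 2.99 and 62.6 ± 12.6 CPM (adjusted p = 0.0448 with edgeR), and the part of erythroid cells in the level of Serpinf1 was not tested.

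Serpinb1a encodes a cytosolic inhibitor of the neutrophil granule proteases elastase, cathepsin G and Prtn3. Control libraries held 8126, 8500 and 11845 of its counts and the deeper IMP1 libraries 7791, 8684 and 8614. Scaled to the depth of a library, these were 305, 336 and 474 CPM in Control and 122, 125 and 166 CPM in IMP1 cells. Every IMP1 library was below every Control library. The means were 372 ± 89.9 and 138 ± 24.4 CPM, a log2 fold change of −1.43 (SE 0.20), or 0.371-fold. With all libraries thinned at random to the smallest total, 7653, 8303 and 11845 counts remained in Control and 3222, 3329 and 4383 in IMP1 libraries. Its call was lost in each of the 6 fits without 1 library (log2 fold change −1.22 without Control 3 to −1.58 without IMP1 3, −1.35 without IMP1 1 and −1.37 without IMP1 2), and also without library scaling (−1.34), with limma-voom (−1.43) and once a trend on transcript length and GC content was taken out (−1.38).

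Serpinb1b and Serpinb1c, the copies shown above, followed Serpinb1a at a small and steady share of its counts. Counts of Serpinb1b were 1.14% to 1.51% of those of Serpinb1a over the 6 libraries, and counts of Serpinb1c 1.35% to 1.76%. The share of Serpinb1b was 1.44% ± 0.0447 in Control and 1.35% ± 0.187 in IMP1 cells (SD, n = 3), and that of Serpinb1c 1.47% ± 0.179 and 1.53% ± 0.197. Their own log2 fold changes were −1.52 (SE 0.65, adjusted p = 0.346 with edgeR) and −1.41 (SE 0.65, adjusted p = 0.380 with edgeR). Neither passed, and how many of their reads came from Serpinb1a was not tested.

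The remaining intracellular members of clade B had groups that overlapped. Serpinb6a, an inhibitor of cathepsin G, stood at 58.4, 45.6 and 62.2 CPM in Control and 66.8, 95.8 and 60.3 CPM in IMP1 libraries. The groups overlapped, with IMP1 2 the highest, and the log2 fold change was 0.42 (SE 0.23), or 0.20 without that library. In the reference the span of Serpinb6a, introns included, overlaps Nqo2, Ripk1 and 1110046J04Rik. The 50-base windows of its longest transcript occurred in 2 other genes, Gm8436 (0.65%) and 1110046J04Rik (0.42%), and not in Nqo2 or Ripk1. Where transcripts of overlapping genes share bases, reads cannot be told apart without strand. Serpinb9, the inhibitor of granzyme B that shields cells from their own or a killer cell's granules, stood at 62.6, 60.3 and 76.4 CPM in Control and 94.9, 76.4 and 70.8 CPM in IMP1 libraries. Its groups overlapped too, with a log2 fold change of 0.28 (SE 0.19), or 0.15 without IMP1 1.

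Serpina3g, also called Spi2A, is an intracellular member of clade A that inhibits cathepsin B and is induced by interferon. It was the most abundant serpin, at rank 186 of 12807 genes by mean CPM, and gave 44.9% to 56.6% of all serpin counts of a library. Its level was 683, 835 and 706 CPM in Control and 808, 673 and 536 CPM in IMP1 libraries. The groups overlapped (742 ± 81.8 and 672 ± 136 CPM, log2 fold change −0.14, SE 0.15). With 1 library left out the value ran from −0.29 to −0.0018, and the sign turned (0.010) once the length and GC trend was taken out. The serpin lies among copies on chromosome 12, and 16.0% of its 50-base windows occurred in other genes, most often in Serpina3h (8.67%), Serpina3f (6.67%) and Serpina3i (6.10%).

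Copies of Serpina3g were of 2 kinds. Serpina3h, Serpina3i and Serpina3n kept to 2.80% to 3.26%, 1.35% to 1.62% and 1.47% to 1.83% of the counts of Serpina3g in all 6 libraries. Serpina3f did not, with 1.32% in IMP1 2 and 4.97% in IMP1 3. Whether reads were exchanged between these genes was not tested.

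**Figure D2:**
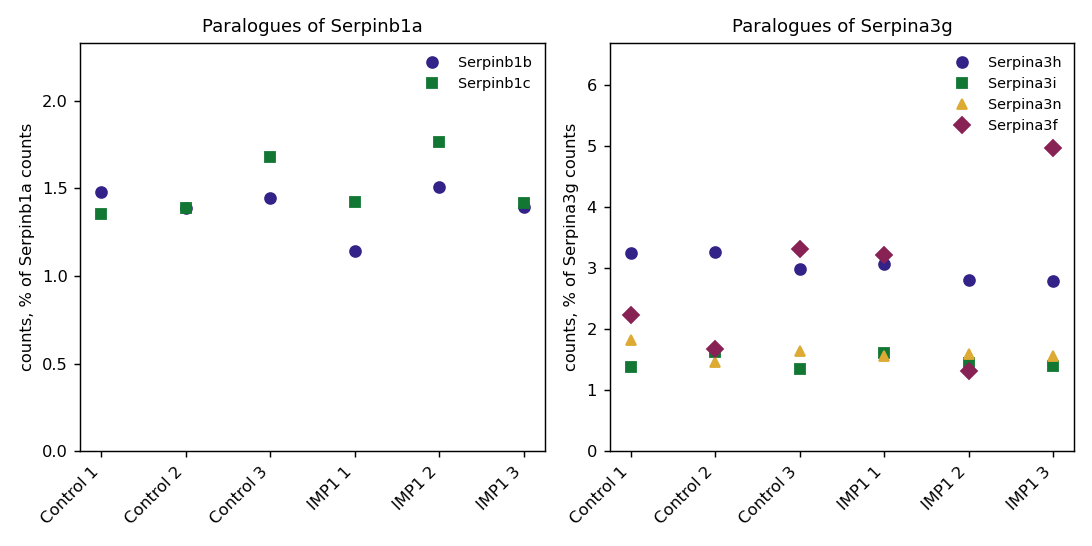
Counts of paralogues as a percentage of the counts of Serpinb1a (left) or Serpina3g (right) in each of the 6 libraries; each point is 1 library. Serpinb1b, Serpinb1c, Serpina3h, Serpina3i and Serpina3n stay within a narrow band, while Serpina3f runs from 1.32% to 4.97%.

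The secreted inhibitors Serpine2 and Serpini1 were expressed at intermediate levels. Serpine2 encodes protease nexin-1, which inhibits thrombin and the urokinase-type plasminogen activator. It stood at 27.3, 18.8 and 32.2 CPM in Control and 19.0, 3.91 and 24.5 CPM in IMP1 libraries. The groups overlapped, and IMP1 2 was far below the other 5 libraries, so that the log2 fold change of −0.72 (SE 0.60) moved to −0.26 without it. Serpini1 encodes neuroserpin, an inhibitor of the tissue-type plasminogen activator first known from neurons. Serpini1 stood at 24.5, 25.5 and 23.3 CPM in Control and 30.8, 25.5 and 21.5 CPM in IMP1 libraries. The Control libraries differed by a coefficient of variation of 4.56%, where the median over all tested genes above 10 CPM was 19.2%, and the IMP1 libraries by 17.99%, beside a median of 19.4%. Its log2 fold change was 0.09 (SE 0.26), and −0.054 without IMP1 1.

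Serpinh1 and Serping1 were near the limit of detection. Serpinh1 encodes HSP47, the collagen chaperone of the endoplasmic reticulum, which is no protease inhibitor. Control libraries held 1, 0 and 37 of its counts and IMP1 libraries 39, 174 and 143, or 0.0376, 0 and 1.48 CPM against 0.612, 2.51 and 2.76 CPM. Control 3 lay between IMP1 libraries, and the fitted log2 fold change of 1.95 had a standard error of 1.65. It was 6.50 without Control 3 and 1.37 without Control 2. Serping1 encodes the C1 inhibitor, which blocks the first proteases of the complement cascade and plasma kallikrein. It did not pass the filter, with 1, 0 and 84 counts in Control and 0, 225 and 1 in IMP1 libraries. All but a single count of each group thus came from 1 library, Control 3 (3.36 CPM) and IMP1 2 (3.25 CPM). A count of 0 allows up to 0.119 CPM in Control 2 and 0.0471 CPM in IMP1 1, counting 3 reads as the limit and covering counting error only.

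Per kilobase of the longest annotated transcript, the Control order of levels ran from Serpina3g (411 ± 45.4 CPM per kb) through Serpinb1a (194 ± 46.9), Serpinb6a (25.3 ± 3.96), Serpinb9 (19.1 ± 2.51), Serpinf1 (18.6 ± 3.46), Serpine2 (7.69 ± 2.00) and Serpini1 (5.97 ± 0.272) to Serping1 (0.641 ± 1.09) and Serpinh1 (0.223 ± 0.371). Neighbours in that order whose library ranges overlapped were Serpinb6a and Serpinb9, Serpinb9 and Serpinf1, Serpine2 and Serpini1, and Serping1 and Serpinh1. In IMP1 cells Serpinb1a (71.9 ± 12.7 CPM per kb) and Serpinf1 (70.4 ± 4.61 CPM per kb) had come to overlapping levels, below Serpina3g (373 ± 75.6). Serpinb6a (33.9 ± 8.62) and Serpinb9 (23.3 ± 3.64) followed. In these bulk libraries, fewer cells with a transcript and less of it per cell cannot be told apart.

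The groups did not overlap for 2 of the 8 tested members, Serpinf1 and Serpinb1a, against 21.9% of all genes tested. Summed over all 64 serpin genes, the level was 1346 to 1558 CPM in the Control and 1193 to 1428 CPM in the IMP1 libraries, and the ranges overlapped. The median log2 fold change of the 8 tested members was 0.18, beside 0.03 for all genes tested.

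Of the other 55 serpin genes, 29 had 0 counts in every library, 13 had counts but did not pass the filter, with at most 39 counts in all, and 13 were tested. None of the 13 was called by edgeR, DESeq2 or limma-voom (0 each), 1 had an unadjusted p under 0.05, and 7 had positive log2 fold changes, with a median of 0.17. The most abundant was Serpinb6b at 67.9 ± 18.6 and 79.3 ± 11.7 CPM (adjusted p = 0.725 with edgeR). Serpinb6b was thus as abundant as Serpinb6a, and its counts, at 86.3% to 196% of those of Serpinb6a, did not keep to a fixed share. Serpinb8 stood at 13.8 ± 5.46 and 18.5 ± 7.55 CPM (adjusted p = 0.736 with edgeR) and Serpina3n at 12.1 ± 0.444 and 10.6 ± 2.13 CPM (adjusted p = 0.866 with edgeR). Serpina3h, Serpina3f, Serpina3i, Serpinc1, Serpina1a, Serpinb6c, Serpinb10 and Serpine3 had log2 fold changes between −0.27 and 0.65.

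**Figure D3:**
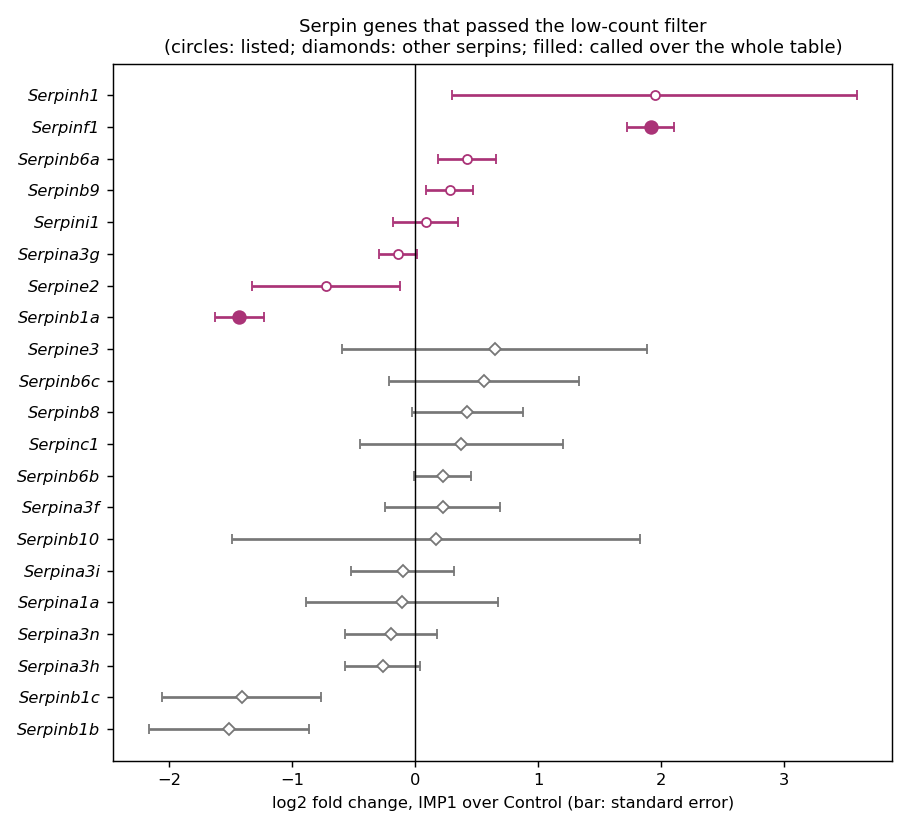
Log2 fold change of IMP1 over Control (x axis) with its standard error for the 21 serpin genes that passed the low-count filter; circles are the listed members, diamonds the other serpins, and filled symbols were called over the whole table. Serpinf1 (1.92) and Serpinb1a (−1.43) are the filled points, and Serpinb1b and Serpinb1c lie beside Serpinb1a with wider errors.

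The proteases that clade B serpins inhibit were unevenly present. Of 12 genes for granule serine proteases, their activator Ctsc and their carrier Srgn, 5 were tested, and 0 were called by edgeR (3 at an unadjusted p under 0.05, 2 called by DESeq2 and 0 by limma-voom). The log2 fold changes of all 5 were negative (median −0.68). Srgn, the proteoglycan core that holds granule proteases, stood at 1566 ± 172 and 1080.5 ± 24.2 CPM (−0.54, adjusted p = 0.0668 with edgeR), and Prtn3 at 258 ± 33.3 and 206 ± 7.30 CPM (−0.33, adjusted p = 0.287 with edgeR). Elane, the elastase, was named after its values were seen and stood at 8.04, 1.54 and 0.20 CPM in Control and 1.32, 0.952 and 1.23 CPM in IMP1 libraries. Ctsg, which encodes cathepsin G and was also named after its values were seen, did not pass the filter. It held 108, 8 and 2 counts in Control and 0, 0 and 6 in the deeper IMP1 libraries. Of the proteases that Serpinb1a inhibits, Prtn3 was therefore far more abundant than Elane and Ctsg in every library. Of the 12 neutrophil precursor markers 9 were tested, 5 positive and 4 negative, and 0 were called by edgeR (7 at an unadjusted p under 0.05, 4 called by DESeq2, 0 by limma-voom). S100a8 stood at 8.91 ± 3.43 and 142 ± 118 CPM (adjusted p = 0.114 with edgeR). Mpo, named after its values were seen, stood at 25.3, 7.40 and 0.36 CPM in Control and 0.031, 0 and 0 CPM in IMP1 libraries. The summed level of the 12 neutrophil precursor markers was 281 to 322 CPM in Control and 234 to 938 CPM in IMP1 libraries, and their part in the level of Serpinb1a was not tested.

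The granzymes were nearly silent. Gzmb, whose product Serpinb9 inhibits, had 0 counts in every library, as had Gzma, Gzmc and Gzmk, 4 of the 6 genes listed. Only Gzmm was tested, at 0.739 ± 1.04 and 0.789 ± 0.693 CPM. Of 10 lysosomal cysteine proteases 9 were tested, with 0 called by edgeR, DESeq2 or limma-voom (1 at an unadjusted p under 0.05) and a median of −0.24. Ctsb, whose product Serpina3g inhibits, stood at 395 ± 74.7 and 335 ± 63.2 CPM (adjusted p = 0.613 with edgeR), and Ctsz at 132 ± 47.6 and 96.4 ± 14.5 CPM.

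The lists for the secreted inhibitors Serpine2, Serpini1 and Serping1 and for HSP47, the collagen chaperone, gave 0 calls by edgeR or limma-voom. Of 15 genes of plasminogen activation and thrombin, 8 were tested and 0 called by edgeR (2 at an unadjusted p under 0.05, 2 by DESeq2, 0 by limma-voom), with a median of 0.03. Most reads came from receptors, the thrombin receptor F2r at 141 ± 31.1 and 109 ± 21.4 CPM and Procr, which binds protein C and marks LT-HSCs, at 82.2 ± 12.2 and 108 ± 38.8 CPM. Of 17 complement and contact genes, 7 were tested and 0 called by edgeR, DESeq2 or limma-voom (0 at an unadjusted p under 0.05), with 6 positive and a median of 0.62. Cd55 stood at 61.4 ± 11.4 and 74.9 ± 5.57 CPM and C1ra, a target of the C1 inhibitor, at 14.7 ± 2.10 and 22.6 ± 8.88 CPM. Of 22 genes for collagen chains and their modifying enzymes, 14 were tested and 0 called by edgeR (2 at an unadjusted p under 0.05, 1 by DESeq2, 0 by limma-voom), with a median of −0.51. P4hb stood at 292 ± 68.8 and 285 ± 44.7 CPM and Ppib, a folding enzyme that works with HSP47, at 123 ± 3.44 and 87.7 ± 0.731 CPM (adjusted p = 0.145 with edgeR).

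Among 6 genes whose products are described as receptors or binding partners of PEDF, 5 were tested and 1, Rpsa, was called lower, from 3968 ± 219 to 2662 ± 238 CPM (−0.58, SE 0.08, adjusted p = 0.0467 with edgeR). At an unadjusted p under 0.05 there were 3, and DESeq2 called 2 and limma-voom 0. DESeq2's other call was Pnpla2, a PEDF receptor and lipase named after its values were seen, at 121 ± 19.4 and 79.2 ± 15.2 CPM (−0.61, adjusted p = 0.221 with edgeR). Rpsa encodes a ribosomal protein that also serves as the laminin receptor. It has many pseudogenes, and its call was lost when any 1 of the 6 libraries was left out, without library scaling, with limma-voom and once the length and GC trend was taken out. Atp5b stood at 842 ± 91.5 and 753 ± 103 CPM (adjusted p = 0.615 with edgeR), and the median of the 5 was −0.16. Of 7 receptors that clear serpin complexes or serve them, 5 were tested and 0 called by edgeR (3 at an unadjusted p under 0.05, 2 by DESeq2, 0 by limma-voom). Their median was −0.27, with Lrpap1 at 223 ± 14.2 and 165 ± 28.3 CPM and Vldlr at 95.1 ± 50.3 and 17.9 ± 2.76 CPM (−2.41, adjusted p = 0.0614 with edgeR).

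**Figure D4:**
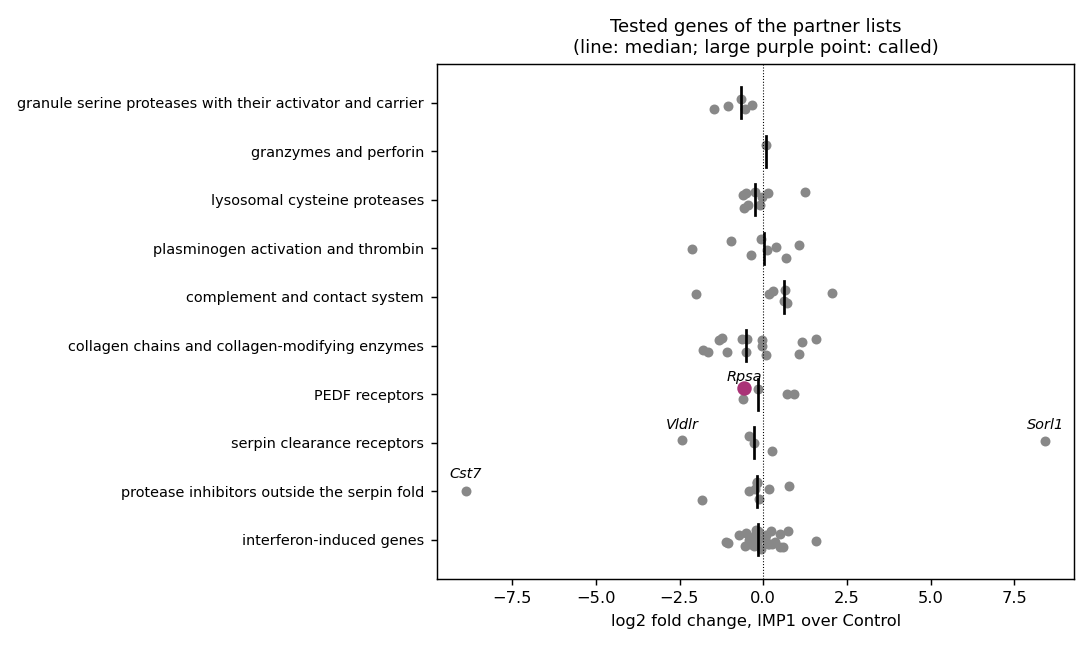
Log2 fold change of IMP1 over Control (x axis) for each tested gene of the 10 partner lists (rows); the black line is the list's median, and the large purple point, Rpsa at −0.58, is the gene called over the whole table. Vldlr, Sorl1 and Cst7 lie farthest from 0; DESeq2 called them, and edgeR and limma-voom did not.

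Interferon-induced genes are a list that bears on Serpina3g and Serpinb9. All 29 were tested and 0 called by edgeR (5 at an unadjusted p under 0.05, 2 by DESeq2, 0 by limma-voom), 12 positive and 17 negative, with a median of −0.16. The abundant B2m stood at 5733 ± 191 and 6111 ± 425 CPM and Psmb8 at 579 ± 34.7 and 430 ± 65.8 CPM (adjusted p = 0.192 with edgeR). Summed levels were 8490 to 8747 CPM in Control and 8018 to 9261 CPM in IMP1 libraries, so the ranges overlapped.

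Genes most like Serpinf1 and Serpinb1a across the 6 libraries were found by the root mean square distance of log2 CPM, each gene centred on its own mean, among 8896 genes of at least 10 CPM. For Serpinf1 these were Ebi3 (distance 0.192), Lst1 (0.218) and Marcks (0.272). For Serpinb1a they were Sting1 (0.125), Stn1 (0.130) and Litaf (0.193). Sting1, which encodes a sensor adaptor of cytosolic DNA signalling, stood at 90.7, 115 and 140.3 CPM in Control and 41.2, 45.4 and 47.9 CPM in IMP1 libraries.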

How the data were processed

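RNA of 200 sorted LT-HSCs per library was made into cDNA with the SMARTer Ultra Low RNA kit, per the labels' protocols, and carries no molecular identifiers. The authors deposited raw counts per Entrez gene, 1 column per library. TopHat2 2.0.10 and mm9 are named in the submitters' processing notes; the counting program, strand setting, read length and handling of multi-mapping reads are not given in the sources used here. Symbols came from RefSeq GRCm38.p6 (21615 of 21761 identifiers). Sequences came from RefSeq and GENCODE M21 and were matched by gene, not by coordinates.

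Counts were tested with edgeR 4.0.16 (quasi-likelihood, TMM, filterByExpr, genotype as the only term) in R 4.3.3, adjusted by Benjamini-Hochberg over all 12807 genes tested. Standard errors are the absolute log2 fold change over the square root of F. No 2 libraries were duplicates (chi-square per degree of freedom at least 61.0). DESeq2 1.42.0, limma 3.58.1 (voom), other scalings and filters, thinning, a length and GC trend, a replicate block and leaving out each library were alternatives. Members and lists were chosen with earlier results of these data known. Genes named were the members, other tested serpins, and of each list the called genes, the 2 most abundant and the markers at 0. For Serpinf1 and Serpinb1a the 3 most similar genes were named, and so was Igf2bp1. Cd48, Elane, Ctsg, Mpo, Igll1, Cd79a, Ebf1, Pnpla2, Cst7 and Sorl1 were added after their values were seen. Some marker genes that this rule names are not reported here. Sequences of the proteins were not used here.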

Additional observations from a re-analysis of the deposited data

How the results depend on the processing

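Against 27 genes called over the whole table (9 higher, 18 lower), 16 were called without library scaling (9 higher, 7 lower), 896 with DESeq2, 11 with limma-voom, 58 with at least 1 CPM in 3 libraries, 4 with the replicate block, 11 with the length and GC trend removed, 231 at a threshold of 0.1, and 0 to 2 with 1 library left out. Of the listed serpins, 2 were called, but 1 without library scaling (Serpinf1), with limma-voom (Serpinf1), with the block (Serpinb1a) and with the trend removed (Serpinf1), and 0 with any 1 library left out. Correlations across genes were 0.0180 to 0.0373 for same-numbered libraries of the 2 groups and −0.0582 to 0.0262 for differently numbered ones. Each Control library had its highest value with the IMP1 library of the same number, though all were near 0. What the shared number stands for is not given, and whether it marks a pairing was not tested. Other serpins gave 0 calls in all 15 alternatives. Of the partner genes 1 was called, but 0 without scaling, with limma-voom, with the block, with the trend removed and with any library left out, 2 without the low-count filter, 4 with the stricter one and 13 with DESeq2. Of the marker genes 2 were called, both higher, but 15 with DESeq2, 0 with limma-voom and with the block, 1 with the trend removed, and 0 to 1 with 1 library left out. Serpinf1 and Serpinb1a kept their direction in all 15 alternatives, with log2 fold changes of 1.78 to 2.10 and −1.58 to −1.22, and were called in 8 and 6. Signs turned for Serpina3g (0.010) and Serpini1 (−0.093) with the trend removed, and for Serpini1 (−0.054) without IMP1 1, with a leave-one-out range of −0.054 to 0.20. The causes were not tested. Serpinh1 ran from 1.37 to 6.50 with 1 library left out and was 2.10 after thinning to the smallest library, against 1.95.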

Other observations

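Among protease inhibitors outside the serpin fold, 9 of 18 were tested and 0 called by edgeR (2 at an unadjusted p under 0.05, 2 by DESeq2, 0 by limma-voom), with a median log2 fold change of −0.20. The abundant members were Cst3, which encodes the secreted cystatin C, at 340 ± 44.4 and 296 ± 19.4 CPM, and Spint2, a membrane-bound serine protease inhibitor, at 234 ± 25.8 and 207 ± 18 CPM. Cst7 and Sorl1 are named here after their values were seen. Cst7, which encodes the leukocyte cystatin F, an inhibitor of the granule protease activator Ctsc, stood at 85, 92 and 120 counts in Control and 1, 0 and 0 in the deeper IMP1 libraries. Sorl1, a sorting receptor of the low density lipoprotein receptor family, had 1, 0 and 0 counts in Control and 520, 315 and 183 in IMP1 libraries. Neither passed the edgeR threshold (adjusted p = 0.0609 and 0.0614).

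Markers of other cell types differed in level and direction. The summed NK and T cell markers were higher in every IMP1 library than in every Control library. Those of mast cells and basophils, and of monocytes, macrophages and dendritic cells, were lower in every IMP1 library. The ranges of the stromal and endothelial, B cell and megakaryocyte sums overlapped. The part of such cells in the levels of Serpinf1 and Serpinb1a was not tested. Of 11 NK and T cell markers, 6 had 0 counts in every library (Cd3g, Cd2, Ncr1, Gzma, Gzmb and Il2rb), and the summed level was 1.27 to 6.24 CPM in Control and 12.6 to 34.8 CPM in IMP1 libraries, where most came from Klrb1c. Of 12 stromal and endothelial markers, 5 were at 0 in every library (Col3a1, Dcn, Pdgfra, Cdh5 and Bglap), and the sums were 27.4 to 44.1 and 36.3 to 45.9 CPM, mostly from Lepr. B cell markers summed to 71.6 to 85.5 and 80 to 147 CPM, mostly Cd79b, with Pax5 and Ms4a1 at 0; the highest was IMP1 2. Mast cell and basophil markers summed to 36.1 to 45 and 2.45 to 14.8 CPM, megakaryocyte markers to 356 to 777 and 345 to 547 CPM, and monocyte, macrophage and dendritic cell markers to 764 to 934 and 582 to 665 CPM. In each of these 6 lists 0 members were called by edgeR or limma-voom, 0 to 2 by DESeq2, and 0 to 2 had an unadjusted p under 0.05.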
